A study of Arabidopsis thaliana with 4 samples.

Results

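The genes described here encode the light-harvesting antenna of the chloroplast and the enzymes that make its chlorophyll, together with 3 regulators. They are 46 named loci out of 32678 loci in the table, chosen by gene identity but with earlier results of these data known. The set holds 21 antenna genes, 22 enzymes of tetrapyrrole and chlorophyll synthesis (called pigment enzymes below), the chelatase cofactor GUN4 and the transcription factors GLK1 and GLK2. The study sequenced total RNA of Arabidopsis thaliana rosette cores, the central 1.5 to 2 cm of the rosette, in 4 libraries of 1 group (cores 1 to 4). All 4 came from untreated plants of the ecotype Col-0 aged 31 days, grown on soil under 16 h of light at 22 °C and 100 µE per m2 and s after cold treatment of the seeds at 4 °C. There was no second genotype, treatment or time, so the comparisons are between genes and between cores. The labels do not say whether each core came from 1 plant or a pool, so a p-value covers only how far these 4 libraries spread, for biological or technical reasons.

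Light-harvesting proteins are thylakoid proteins that bind chlorophyll a and b and pass the absorbed energy to the photosystems. LHCA proteins surround photosystem I. LHCB1, LHCB2 and LHCB3 form the trimers of the major antenna of photosystem II, and LHCB4, LHCB5 and LHCB6 are the monomeric antennae CP29, CP26 and CP24. Chlorophyll synthesis starts with aminolevulinate (ALA) made from glutamyl-tRNA by glutamyl-tRNA reductase (HEMA) and glutamate-1-semialdehyde aminotransferase (GSA). It runs through common tetrapyrrole steps (HEMB to PPOX) and enters the magnesium branch when magnesium chelatase (CHLI, CHLD, CHLH, with GUN4) inserts the metal. In green tissue GLK1 and GLK2 are known as activators of genes of both kinds.

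The libraries held 5639486 to 7692788 counts, with organelle genes at 2.94 to 5.15% of counts of loci with 1 model. The deposited table has 1 row for each TAIR10 transcript model, and loci with several models held few counts. The mean count of protein-coding loci had a median of 55.5 where there was 1 model and of 0.50 where there were several. Levels are therefore given for 30 members with 1 model, which are 16 of 21 antenna genes, 12 of 22 pigment enzymes, GUN4 and GLK2. Counts were scaled to CPM, the share of a library's nuclear 1-model counts times 1000000, with TMM factors, and CPM per kb of exon is used to compare genes. Of the shoot apex markers, STM, KNAT1, CUC1, CUC2 and CUC3 were all detected, with summed levels of 201.8 to 619.5 CPM. The 4 root hair markers RHD6, EXPA7, EXPA18 and COBL9 had 8 counts in all libraries together, and EXPA7 had none.

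The other 16 members have several models, and most of their rows were empty or nearly so. CHLH, the large chelatase subunit, and PORC, a light-dependent protochlorophyllide reductase, had 0 counts in all 4 cores. A count of 0 allows up to 0.419, 0.447, 0.459 and 0.565 CPM in these rows of cores 1 to 4, and such limits cover counting error only. LHCA1, PORA and CAO, the oxygenase that makes chlorophyll b, had 1 count each over all cores. LHCA3 and GLK1 had 4 counts, LHCB4.2 and PPOX1 had 3, HEME1 had 7, HEMB1 had 12, CRD1 had 14, CHLM had 46, LHCA5 had 83 and PORB had 126. The most counts among these 16 were those of LHCB4.3, with 359, 459, 304 and 355 in cores 1 to 4. LHCB4.3 also had the largest share of exon bases that lie in only 1 of its models, 48.6%, while the other 15 had 4.21 to 30.2%. These rows give no level for the loci, so steps such as the CHLH subunit, the methyltransferase CHLM, the cyclase CRD1 and the POR reductases were not measured here.

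Antenna genes stood well above pigment enzymes in every core. The median antenna level was 9.63, 9.07, 9.73 and 9.38 log2 CPM per kb in cores 1 to 4, and the median pigment enzyme level was 6.87, 6.48, 7.12 and 7.06. Both medians were lowest in core 2 and highest in core 3. The difference was 2.76, 2.60, 2.61 and 2.32 log2 units, with a mean of 2.57 ± 0.18 (SD, n = 4), which is 5.95-fold. The antenna median averaged 9.45 ± 0.29 and the pigment median 6.88 ± 0.29 log2 CPM per kb, beside 2.28 for the 20912 nuclear 1-model protein-coding loci. Each class varied between cores by far less than the gap between the classes. The size of that gap depended on which antenna genes were counted: it was 3.43 log2 units without the LHCB1 and LHCB2 genes, whose copies share sequence. It also rests on the 12 of 22 pigment enzymes that had a level.

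**Figure D1:**
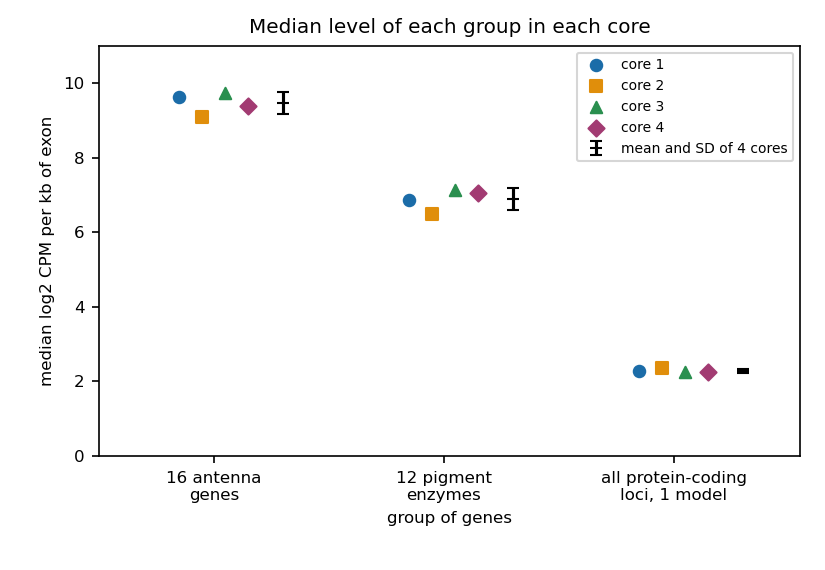
Median log2 CPM per kb of exon in each of the 4 rosette cores for the 16 antenna genes, the 12 pigment enzymes and all nuclear 1-model protein-coding loci; symbols are cores and the black bar is the mean with its SD (n = 4). The antenna medians lie between 9.07 and 9.73, the pigment medians between 6.48 and 7.12, and the medians of all loci near 2.28.

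The classes overlapped gene by gene. Of the 16 antenna genes, 10 lay above the highest of the 12 pigment enzymes measured, while 6 lay below the median of those enzymes. Those 6 were LHCB7, LHCB2.1, LHCB2.2, LHCB2.3, LHCA6 and LHCB1.1, at 12.8 to 85.9 CPM per kb. The enzyme gene CHLP, listed below with other tetrapyrrole genes and not in this class, had 979.5 CPM per kb. That is above LHCB1.2 (541.3) and LHCB1.4 (315.3), which are among the 10. Antenna genes took 3.89 ± 0.59% and pigment enzymes 0.292 ± 0.065% of nuclear 1-model counts (SD, n = 4). The antenna genes ran from 12.8 to 19027 CPM per kb, whereas 11 of the 12 pigment enzymes lay between 62.4 and 287.0 CPM per kb.

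**Figure D2:**
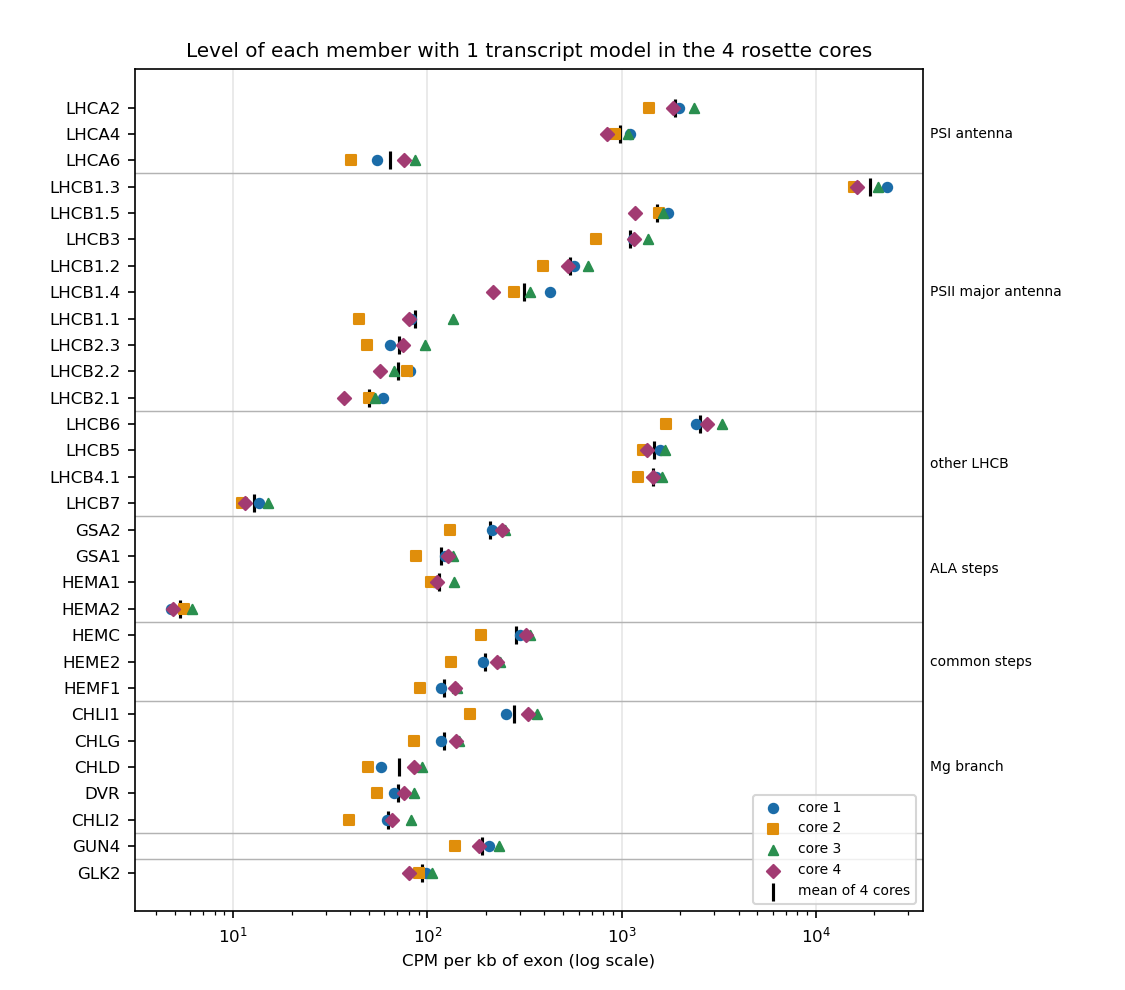
CPM per kb of exon (log axis) of the 30 members with 1 transcript model, antenna genes above and pigment enzymes and regulators below; symbols are the 4 cores and the black tick is their mean. LHCB1.3 lies alone at 19027, the antenna genes reach down to LHCB7 at 12.8, and HEMA2 at 5.33 is the only pigment enzyme below 62.4.

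In the major antenna of photosystem II, a single gene held most of the transcripts. LHCB1.3 had 28529, 19449, 25652 and 19981 CPM in cores 1 to 4, a mean of 23403 ± 4422 (SD, n = 4). Cores 1 and 3 were high and cores 2 and 4 low. At 19027 CPM per kb it ranked 1 among the 20912 nuclear 1-model protein-coding loci, and it alone took 2.34% of nuclear 1-model counts. It made up 60.0 ± 2.9% of the summed CPM of the 16 antenna genes and 89.3 ± 0.7% of that of the 5 LHCB1 genes. Its share of the LHCB1 sum stayed between 88.4 and 90.0% in every core, although its CPM differed 1.47-fold between the highest and the lowest core.

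The other LHCB1 copies lay far below it. LHCB1.5 averaged 1528 CPM per kb, LHCB1.2 541.3, LHCB1.4 315.3 and LHCB1.1 85.9. LHCB1.1 had 108.3, 58.5, 178.7 and 105.7 CPM in cores 1 to 4, so core 3 was 3.05-fold above core 2, the widest spread among the 30 members. The log2 ratio of LHCB1.3 to LHCB1.1 per kb was 8.14, 8.47, 7.26 and 7.66 in the 4 cores, a mean of 7.88 ± 0.53 or 236-fold. That of LHCB1.3 to LHCB1.2 was 5.14 ± 0.22, a 35.3-fold difference in the same direction in 4 of 4 cores. LHCB1.4 lay below its neighbour LHCB1.5, with a log2 ratio of −2.31 ± 0.21 and the same sign in 4 of 4 cores. An annotated long non-coding RNA on the opposite strand covers 100% of the LHCB1.5 exons and was not among the loci counted. A protein-coding gene on that strand, AT2G34410, covers 9.47% of them. The strand setting of the counting is not given in the sources used here. Whether the LHCB1.5 counts include reads from the opposite strand therefore cannot be told.

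These copies are close neighbours and nearly alike in their coding parts. LHCB1.2 (AT1G29910), LHCB1.1 (AT1G29920) and LHCB1.3 (AT1G29930) lie side by side on chromosome 1 of TAIR10.1 as single-exon genes, with 1153 bases between LHCB1.2 and LHCB1.1 and 1915 between LHCB1.1 and LHCB1.3. LHCB1.1 and LHCB1.3 are divergently oriented. LHCB1.5 (AT2G34420) and LHCB1.4 (AT2G34430) are divergent too, with 1038 bases between them on chromosome 2. The coding sequences of the chromosome 1 copies were 95.7 to 96.4% identical, and those of LHCB1.4 and LHCB1.5 91.6%. Even so, only 1.51 to 4.44% of the 100-base windows of the LHCB1 transcripts occurred in another gene, and at 50 bases the share was 10.7 to 20.5%. How the authors assigned reads that fit several copies is not given in the sources used here, so levels of LHCB1 copies carry that uncertainty.

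The sequences just before the genes were less alike. Aligned end to end, the 250-base windows of the chromosome 1 copies were 51.9 to 56.4% identical and those of LHCB1.4 and LHCB1.5 54.5%, near the 53.6% of the windows of HEMA1 and HEMA2, which lie far apart. They are shown because the copies have like coding sequences and very unlike levels. Each line is the 250 bases before the annotated gene start in TAIR10.1 (RefSeq annotation), 5′ to 3′ on the strand of the gene. LHCB1.3 is chr1:10477635-10477884 (plus strand), LHCB1.5 is chr2:14523569-14523818 (minus), LHCB1.2 is chr1:10473503-10473752 (minus), LHCB1.4 is chr2:14524357-14524606 (plus) and LHCB1.1 is chr1:10475970-10476219 (minus). Capitals mark matches to the longer motifs searched: CCAATC, a motif linked to GLK target promoters in Arabidopsis, the G-box CACGTG, the I-box GATAAG, the CCA1-binding element AAAAATCT and TATAAA, each on either strand. The lines run from the highest to the lowest level per kb.
LHCB1.3: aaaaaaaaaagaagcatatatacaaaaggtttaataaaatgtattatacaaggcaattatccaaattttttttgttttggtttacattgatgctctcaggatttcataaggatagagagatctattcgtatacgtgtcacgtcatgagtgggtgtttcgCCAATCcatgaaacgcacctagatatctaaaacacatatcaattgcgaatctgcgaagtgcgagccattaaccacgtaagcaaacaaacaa
LHCB1.5: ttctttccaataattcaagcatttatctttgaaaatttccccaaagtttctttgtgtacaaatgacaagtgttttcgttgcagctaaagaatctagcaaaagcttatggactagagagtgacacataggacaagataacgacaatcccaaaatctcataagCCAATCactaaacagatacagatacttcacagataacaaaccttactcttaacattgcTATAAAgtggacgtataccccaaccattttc
LHCB1.2: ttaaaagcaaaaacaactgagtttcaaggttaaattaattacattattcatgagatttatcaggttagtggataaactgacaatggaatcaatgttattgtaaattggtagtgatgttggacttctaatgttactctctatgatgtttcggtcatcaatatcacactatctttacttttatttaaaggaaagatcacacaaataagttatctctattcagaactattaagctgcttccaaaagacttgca
LHCB1.4: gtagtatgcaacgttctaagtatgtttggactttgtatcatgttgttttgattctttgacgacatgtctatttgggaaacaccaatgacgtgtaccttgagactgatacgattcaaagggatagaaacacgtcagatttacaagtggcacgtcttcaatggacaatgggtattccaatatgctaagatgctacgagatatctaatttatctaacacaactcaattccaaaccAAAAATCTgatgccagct
LHCB1.1: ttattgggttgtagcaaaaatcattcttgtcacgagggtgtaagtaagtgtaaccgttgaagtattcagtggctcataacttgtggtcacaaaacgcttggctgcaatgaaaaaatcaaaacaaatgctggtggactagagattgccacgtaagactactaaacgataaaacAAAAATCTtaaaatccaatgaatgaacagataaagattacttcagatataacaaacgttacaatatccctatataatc

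Among these 5, LHCB1.3 and LHCB1.5, the genes with the highest levels, each held a CCAATC match, starting 91 and 89 bases before the gene. The windows of LHCB1.2, LHCB1.4 and LHCB1.1 held none, while LHCB1.4 and LHCB1.1 held AAAAATCT. The same did not hold across the antenna class: the windows of LHCB2.1 and LHCB2.2, low genes, held CCAATC, and that of LHCB6, the second highest gene, did not. Over all antenna genes, the 5 with several models included, 10 of 21 windows held CCAATC (47.6%), compared with 2 of 22 pigment enzymes (9.09%) and 10.2% of 27443 nuclear protein-coding genes. The shorter string CCAAT, which every CCAATC match contains, occurred in 90.5% of antenna windows, 54.5% of pigment enzyme windows and 46% of all windows. The G-box occurred in 5 antenna windows (23.8%) and 2 pigment windows (9.09%), beside 6.49% of all. The I-box occurred in 4 and 2 windows (12.3% of all), AAAAATCT in 3 and 2 (6.69% of all) and TATAAA in 8 and 11 (47.3% of all). A match is only a string of letters in this window, and with 21 and 22 windows these shares are descriptions without a test.

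The 3 LHCB2 genes were low and near each other. LHCB2.3 had 71.3, LHCB2.2 70.8 and LHCB2.1 49.99 CPM per kb, and the 3 together had 0.0256% of nuclear 1-model counts, against 2.61% for the 5 LHCB1 genes. LHCB2.2 exceeded LHCB2.1 in 4 of 4 cores, with a log2 ratio of 0.51 ± 0.15. The log2 ratio of LHCB2.3 to LHCB2.1 per kb was 0.11, −0.03, 0.86 and 1.00 in cores 1 to 4. LHCB2.3 was thus higher in 3 of 4 cores per kb, and in CPM, with no length term, in 4 of 4. The length used for LHCB2.3 was 1465 bases, all exon bases annotated for the locus, while its first model has 1170 bases. A shorter length would raise its level per kb and these ratios, so the sign in core 2 rests on the length chosen. Between LHCB2.1 and LHCB2.2, whose coding sequences were 96.6% identical, 100-base windows were shared for 9.87% of LHCB2.1 and 12.4% of LHCB2.2, which makes the split of their reads uncertain. LHCB2.3 shared no such window, but a gene on the opposite strand covers 40.6% of its exons. The rows of that gene, AT3G27700, held 5, 1, 5 and 2 counts in cores 1 to 4, but it has several models.

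LHCB3, the third trimer subunit, had 1421.6, 916.3, 1704.1 and 1435.4 CPM in cores 1 to 4. Core 2 was low and core 3 high, 1.86-fold apart. Per kb it reached 1102, so LHCB1.3 exceeded it by 4.13 ± 0.30 log2 units in 4 of 4 cores.

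Among the monomeric antennae of photosystem II, LHCB6 (CP24) was the highest. It had 2911.5, 2041.0, 3975.7 and 3311.1 CPM in cores 1 to 4 and ranked 14 of the 20912 loci at 2541 CPM per kb. Core 3 was 1.95-fold above core 2. Opposite-strand genes cover 20.4% of the LHCB6 exons. LHCB5 (CP26) at 1467 and LHCB4.1 (CP29) at 1446 CPM per kb ranked 45 and 48. LHCB5 and LHCB4.1 differed by less than their spread between cores, and their CPM differed only 1.29-fold and 1.34-fold between the highest and the lowest core. LHCB6 exceeded LHCB5 by 0.62, 0.39, 0.99 and 1.03 log2 units per kb in the 4 cores. LHCB7, a rare member of the family, had only 12.8 CPM per kb and was the lowest antenna gene.

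The photosystem I antenna was measured through 3 of 6 genes. LHCA2 had 2774, 1947, 3330 and 2584 CPM in cores 1 to 4, and ranked 26 at 1888 CPM per kb. LHCA4 had 1422, 1193, 1393 and 1085 CPM, and ranked 81 at 983.3 CPM per kb. The cores thus came in different orders in these genes: LHCA2 was highest in core 3 and lowest in core 2, LHCA4 highest in core 1 and lowest in core 4. LHCA6, known to join photosystem I to the NDH complex, lay at 64.1 CPM per kb, with a log2 ratio of LHCA2 to LHCA6 of 4.91 ± 0.27, or 30.1-fold.

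At the ALA steps, 1 of the 2 glutamyl-tRNA reductase genes measured lay far below the other. HEMA1, known as the main form in green tissue, had 248.8, 239.7, 314.8 and 257.7 CPM in cores 1 to 4. HEMA2, known from roots and stress, had 10.5, 12.2, 13.5 and 10.7 CPM. The log2 ratio of HEMA1 to HEMA2 per kb was 4.49, 4.22, 4.47 and 4.50, a mean of 4.42 ± 0.14 or 21.4-fold, while their coding sequences were 80.7% identical. GSA1 lay below GSA2, at 118.0 and 209.6 CPM per kb, with a log2 ratio of −0.80 ± 0.15 and the same sign in 4 of 4 cores. Core 2 had the smallest difference within both pairs.

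The 250 bases before HEMA1 and HEMA2, shown for this 21.4-fold difference, are chr1:21626403-21626652 and chr1:3239555-3239804 of TAIR10.1, both for genes on the minus strand and with matches in capitals as before.
HEMA1: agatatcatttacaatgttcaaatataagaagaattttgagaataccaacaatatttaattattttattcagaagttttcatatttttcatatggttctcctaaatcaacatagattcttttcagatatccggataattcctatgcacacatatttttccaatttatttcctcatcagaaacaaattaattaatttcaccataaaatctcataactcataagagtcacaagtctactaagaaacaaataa
HEMA2: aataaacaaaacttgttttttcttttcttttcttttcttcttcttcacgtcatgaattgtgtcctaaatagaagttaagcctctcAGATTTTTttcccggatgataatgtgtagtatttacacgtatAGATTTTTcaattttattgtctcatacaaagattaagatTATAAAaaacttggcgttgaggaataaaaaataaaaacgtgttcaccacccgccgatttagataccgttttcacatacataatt

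The HEMA1 window held no match to the longer motifs, and that of HEMA2, the low gene, held the CCA1-binding element on the opposite strand at 2 places and 1 TATAAA.

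Of the common tetrapyrrole steps, 3 of 6 loci were measured. HEMC, the porphobilinogen deaminase, was the highest pigment enzyme with 494.9, 308.9, 551.2 and 531.1 CPM in cores 1 to 4 and 287.0 CPM per kb. The uroporphyrinogen decarboxylase HEME2 had 197.0 and the coproporphyrinogen oxidase HEMF1 122.2 CPM per kb. All 3 were lowest in core 2, by a margin, and near each other in cores 3 and 4.

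In the magnesium branch, the chelatase subunit CHLI1 had 407.2, 265.3, 587.8 and 530.3 CPM in cores 1 to 4. Core 3 was 2.22-fold above core 2, the widest spread among the pigment enzymes. CHLI1 exceeded its paralogue CHLI2 in 4 of 4 cores, at 278.4 CPM per kb against 62.4 for CHLI2, with a log2 ratio of CHLI1 to CHLI2 of 2.14 ± 0.13 (4.41-fold). The partner subunit CHLD had 152.8, 129.8, 247.7 and 224.6 CPM, with cores 3 and 4 above cores 1 and 2. DVR, the divinyl reductase, had 70.8 and CHLG, the chlorophyll synthase that attaches the phytyl chain, 121.9 CPM per kb. Among these 5 loci of the branch, each was highest in core 3 and lowest in core 2.

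The regulators had levels like those of the enzymes. GUN4, which binds porphyrin and stimulates the chelatase, had 270.2, 179.6, 301.5 and 240.2 CPM in cores 1 to 4 and 191.3 CPM per kb. An opposite-strand gene, AT3G59410, covers 73.0% of its exons. GLK2 had 171.0, 156.8, 183.6 and 139.6 CPM and 93.96 CPM per kb. Core 4 was the lowest for GLK2 and the third for GUN4.

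The 4 cores are replicates, but they differed by more than counting noise for most members. Of the 30 members, 28 passed the test of variation between cores (chi-square test of Poisson heterogeneity, Benjamini-Hochberg adjusted p under 0.05), against 64.2% of the 12771 loci tested. The test finds smaller differences in deeper genes, and 95.7% of loci with a mean of at least 1000 counts passed, so the members' share is near that of abundant genes. The exceptions were the lowest members, LHCB7 (adjusted p = 0.120 by the same chi-square test, no permutation) and HEMA2 (adjusted p = 0.416 by that test, no permutation). By class, 15 of 16 antenna genes, 11 of 12 pigment enzymes and both regulators passed. A ratio of at least 2 between the highest and the lowest core was found in 4 of 30 members (LHCB1.1, LHCA6, CHLI1 and CHLI2), beside 15.7% of loci tested. The median highest-to-lowest ratio was 1.64-fold for antenna genes and 1.75-fold for pigment enzymes, beside 1.45-fold for the loci tested.

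Most members shared an order of cores. All 12 pigment enzymes were highest in core 3, beside 29.3% of loci tested. Of these enzymes, 11 were lowest in core 2, while HEMA2, which did not pass the test of variation, was lowest in core 1. Under library totals HEMA1 left the order, and 10 pigment enzymes were highest in core 3 and lowest in core 2. Of the antenna genes, 10 of 16 were highest in core 3 and lowest in core 2, as was GUN4. LHCB7, which did not pass the test either, is among those 10. Among all loci tested, 12.8% had that order. Core 3 exceeded core 2 for 12 of 12 pigment enzymes and 15 of 16 antenna genes, beside 50.1% of loci tested. LHCB2.2 was the exception among these 1-model genes. Of the members with several models, not counted here, LHCB4.3, with the most counts, ran the other way. Its unscaled counts were 459 in core 2 and 304 in core 3. PORB had 29 and 21, LHCA5 had 19 and 17, and CHLM had 10 and 17. The median log2 ratio of core 3 to core 2 was 0.44 for antenna genes (−0.23 to 1.61) and 0.81 for pigment enzymes (0.14 to 1.15), and 0.00 for all loci tested. In bulk samples such as these, fewer cells of a type and less RNA per cell cannot be told apart.

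**Figure D3:**
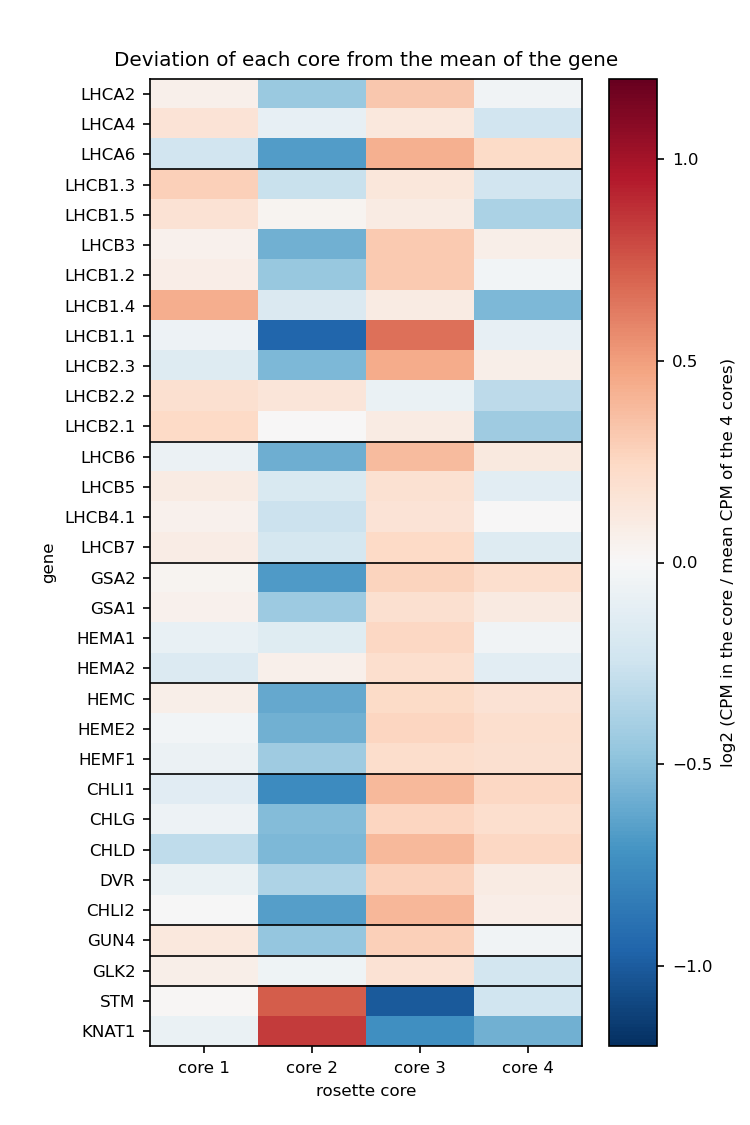
Log2 of the CPM in each rosette core over the mean of the 4 cores, for the 30 members by role (antenna genes above, pigment enzymes and regulators below) and the apex markers STM and KNAT1 in the bottom rows; red is above and blue below the mean of the gene. Core 2 is blue and core 3 red for most members, and the reverse holds for STM and KNAT1. The apex markers CUC1, CUC2 and CUC3 are not shown, and CUC1 and CUC2 had other orders.

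The pigment enzymes and part of the antenna genes, mainly LHCB1 and LHCB2, parted in cores 1 and 4. Core 4 exceeded core 1 for 12 of 12 pigment enzymes, by 0.03 to 0.56 log2 units, beside 49.8% of loci tested. The same held for 4 of 16 antenna genes and neither regulator. The smallest difference among the enzymes was that of HEMA2 (0.03), which did not pass the test of variation. HEMA1 (0.05) and GSA1 (0.06) differed little too. Of the 6 other tetrapyrrole genes tested, 5 were higher in core 4. The exception was CHLP, with 2190.6 CPM in core 1 and 1931.8 in core 4. The median log2 ratio of core 4 to core 1 was −0.17 for antenna genes (−0.98 to 0.46) and 0.17 for pigment enzymes. Among the 8 LHCB1 and LHCB2 genes, whose copies share sequence, 1 was higher in core 4, with a median of −0.51. Among the other 8 antenna genes 3 were, with a median of −0.07, nearer to the share of all loci. LHCA4, LHCB1.4, LHCB1.5, LHCB2.1 and LHCB2.2 were highest in core 1 and lowest in core 4, an order found in 5 of 16 antenna genes, in 0 of 12 pigment enzymes and in 5.98% of loci tested. LHCB1.4 had the largest such difference, with 560.3, 366.6, 443.1 and 284.9 CPM in cores 1 to 4. LHCB1.3, highest in core 1 as well, was lowest in core 2. Which genes had this order depended in part on the scaling: LHCA4 left it under DESeq2 size factors, and LHCA4 and LHCB2.2 left it and LHCB1.3 joined it under library totals. The antenna genes with more in core 4 than in core 1 were LHCA6, LHCB2.3, LHCB3 and LHCB6. LHCB2.3 and LHCB6 are among the genes with over 20% of their exons under an opposite-strand gene, and without such genes the count was 2 of 13. With 1 library for each core, these are descriptions of single libraries.

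**Figure D4:**
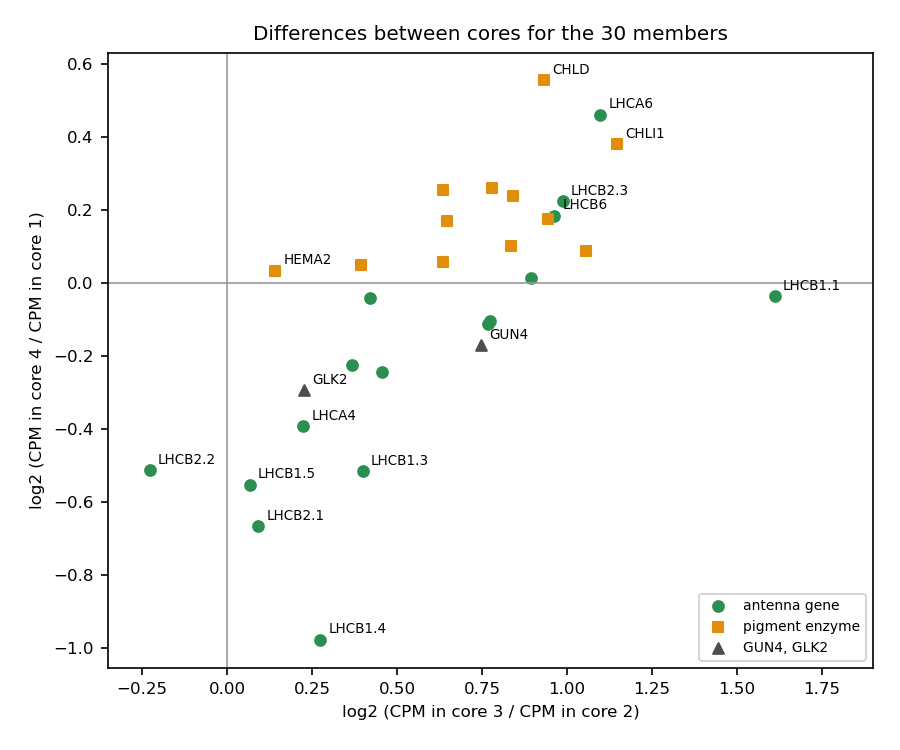
Log2 ratio of CPM in core 3 to core 2 (horizontal) and in core 4 to core 1 (vertical) for the 30 members with 1 model; circles are antenna genes, squares pigment enzymes and triangles GUN4 and GLK2. All 12 pigment enzymes lie right of and above 0, while 12 of 16 antenna genes lie below 0 on the vertical axis, down to −0.98 for LHCB1.4.

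Of the 5 shoot apex markers, 3 had the reverse order, highest in core 2 and lowest in core 3, which 13.7% of loci tested had. STM, the homeobox gene of the meristem, had 193.6, 317.4, 95.7 and 162.4 CPM in cores 1 to 4, and KNAT1 had 152.7, 289.0, 97.1 and 108.5 CPM. The boundary gene CUC3 had 5.17, 6.55, 3.06 and 3.58 CPM. These 3 genes were highest in core 2 and lowest in core 3. The summed CPM of the 5 apex markers was 358.4, 619.5, 201.8 and 281.8. The other boundary genes had another order: CUC1, at 2.35 CPM on average, was highest in core 1 and lowest in core 3, and CUC2, at 4.37 CPM, was highest in core 4 and lowest in core 2. The part of the markers' differences in those of the antenna and pigment genes was not tested.

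The neighbouring pathways were followed through 5 lists. Of 16 other tetrapyrrole genes, 7 had 1 model and 6 of 6 tested passed the test of variation between cores, against 64.2% of all loci tested. All 6 of these were higher in core 3 than in core 2, as were 50.1% of loci tested. Only 3 of the 6 were highest in core 3 and lowest in core 2 (12.8% of loci tested). The other 3, SIRB, GLUTRBP and LCAA, were highest in core 4. CHLP, the reductase that makes the phytyl chain, had 979.5 CPM per kb, above all 12 pigment enzymes, and LCAA, an accessory protein of the cyclase, 245.2. At the low end, SIRB of the sirohaem branch had 15.4, and HEMB2, a second porphobilinogen synthase gene, 0.171 CPM per kb.

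Of 10 genes of chlorophyll turnover, 8 had 1 model. Of these, 6 of 8 passed the test (64.2% of loci tested), and 3 of 8 were higher in core 3 than in core 2 (50.1% of loci tested), with a median log2 ratio of −0.18. HCAR, the hydroxymethyl chlorophyll a reductase, was the 1 gene of the 8 that was highest in core 3 and lowest in core 2 (12.8% of loci tested). These counts are near the shares of all loci. The chlorophyllase CLH1 had 146.1, 103.3, 83.8 and 82.7 CPM in cores 1 to 4 and was the highest of them at 71.5 CPM per kb, followed by ACD2, the red chlorophyll catabolite reductase, at 43.8. CLH2 at 2.24 and NYE2 at 3.204 CPM per kb were the lowest, and 71.5% of the CLH2 exons lie under an opposite-strand gene.

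Of 9 genes for proteins related to the antenna, 8 had 1 model and 6 of 6 tested passed, against 64.2% of loci tested. Of these 6, 5 were higher in core 3 than in core 2 (50.1% of loci tested). The order highest in core 3 and lowest in core 2 was found in 4 of 6 (12.8% of loci tested). The stress-enhanced protein SEP1 had 332.0 and LIL3.2, which works with the phytyl reductase, 313.7 CPM per kb. The early light-induced genes ELIP1 and ELIP2 had 1.65 and 3.01 CPM per kb and were too low to be tested. Both were lower in core 3 than in core 2, with 1.07 against 2.68 CPM for ELIP1 and 0.61 against 3.72 for ELIP2. Of 8 genes for antenna insertion and phosphorylation, 5 had 1 model and 4 of 5 passed, near the share of all loci. All but CPSRP43, 4 of 5, were higher in core 3 than in core 2 (50.1% of loci tested). LTD, which guides antenna proteins to their import route, had 295.0 and the kinase STN8 93.8 CPM per kb, while CPSRP43, the antenna chaperone, had 68.2 and the kinase STN7 18.6. An opposite-strand gene covers 59.5% of the LTD exons. CPSRP43 had 158.5, 146.7, 103.7 and 86.5 CPM in cores 1 to 4, and its partner CPSRP54 had 168.9, 129.2, 215.6 and 199.7. Cores 3 and 4 were low for CPSRP43 and high for CPSRP54.

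Of 9 light regulators, 4 had 1 model and 3 of 4 passed, near the share of all loci. Levels were higher in core 3 than in core 2 for 3 of 4 (50.1% of loci tested). The GATA factor GNC had 19.5 and the bZIP factor HY5 11.4 CPM per kb, while CGA1 had 6.14 and FAR1 5.12. All 4 lay below GLK2 at 93.96 CPM per kb.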

How the data were processed

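Total RNA of 4 rosette cores was depleted of ribosomal RNA and made into strand-specific Ion Torrent libraries, per the labels' protocols. HTSeq, the TAIR10 build and Torrent Suite 4.0.2 are named in the submitters' processing notes and the labels. What aligner, strand setting and treatment of reads with several matches the authors used is not given in the sources used here. They deposited raw counts, whole numbers with 1 row per transcript model and no normalization. Rows of loci with several models held 1.63 to 1.73% of counts.

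Names, exons and sequences come from the NCBI annotation of TAIR10.1. Exon length counts every base in any annotated exon of a locus. Among the 30 members it exceeds the first model for LHCB2.3 (1465 against 1170 bases), GSA1 (1960 against 1807) and GLK2 (1732 against 1594), which lowers their levels per kb. Members and lists were chosen with earlier results of these data known. CPM used nuclear 1-model loci and TMM factors (edgeR 4.0.16, R 4.3.3) from the 12771 loci that passed filterByExpr (minimum count 10). Each locus tested was given a chi-square test of Poisson heterogeneity over the 4 cores with Benjamini-Hochberg adjustment over all (scipy 1.17.1, statsmodels 0.14.6), checked on simulated data. Class medians and pair ratios used a prior count of 0.5 per library. A two-sided exact sign-flip permutation test over 4 cores cannot go below p = 0.125, so pair ratios carry SDs and signs only. Library totals of 5639486 to 7692788 counts set the counting precision, and PCR reads without molecular identifiers are not independent molecules. Alternatives were DESeq2 1.42.0 size factors, library totals without scaling, other filters, prior counts and length terms, counts summed over models, and each core left out. Every member is named, and of each other list the 2 highest and 2 lowest loci per kb. CPSRP54 and HCAR, and GLK2 beside another list, were named after their values were seen.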

Additional observations from a re-analysis of the deposited data

Results flagged for a closer look

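Among 44 sets of 4 values examined, the levels of the 30 members, the class medians and the pair ratios among them, 1 had a core far from the others. The log2 ratio of HEMA1 to HEMA2 per kb was 4.22 in core 2, against 4.47 to 4.50 in cores 1, 3 and 4, a gap of 0.879 of the whole range. Chance flags about 1 in 20 such sets.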

How the results depend on the processing

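No paired analysis was possible because there is 1 group. The median antenna level, median pigment enzyme level and their difference moved when counts were summed over the models of all 46 loci (6.49, 4.13 and 2.37 log2 CPM per kb) and without the length term (9.78, 7.78 and 2.00 log2 CPM). Without the LHCB1 and LHCB2 genes the antenna median was 10.31 and the difference 3.43. In an alternative chosen after seeing the data, without members whose exons lie over 20% under an opposite-strand gene, they were 9.05 and 2.17, and 2 of 13 antenna genes, in place of 4 of 16, were higher in core 4 than in core 1. The difference kept its direction in all of these. Leaving out each core in turn gave antenna medians of 9.36 to 9.56, pigment medians of 6.80 to 7.0, differences of 2.51 to 2.66, 27 to 28 members that passed the test of variation and 10 to 11 pairs with 1 sign. HEMA1 did not pass without core 3, nor LHCB2.1 without core 4, and the pair LHCB2.3 and LHCB2.1 had 1 sign without core 2 and without the length term (11 pairs). Without the length term, the log2 ratios of LHCA2 to LHCA6, LHCB1.4 to LHCB1.5 and LHCB2.2 to LHCB2.1 were 5.19, −1.98 and 0.21. No result reversed. The scaling factors multiply to 1 over the cores, so DESeq2 size factors and library totals cannot move class means. For 16 members the rows give no level, and low genes such as HEMA2 and LHCB7 are limited by depth.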
